A study of Mus musculus with 4 samples.

Results

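The genes described are 10 that build the mitotic spindle or divide the cell after it: Tpx2, Nusap1, Hmmr, Ckap2l, Tacc3, Birc5, Prc1, Racgap1, Ect2 and Anln. They were picked by symbol from the FPKM table as spindle and cytokinesis genes that are not kinesin motors, and all 10 were found, each in 1 row, among 23970 gene symbols. RNA was sequenced from keratinocytes of newborn mice, grown at passage 0 in low-calcium medium on growth-arrested J2-3T3 mouse fibroblasts and harvested before confluence with the feeder cells taken off. There were 2 Ovol2-deficient libraries and 2 control libraries, with no further treatment in either group. Ovol2 is a zinc-finger transcription factor of epithelia. The sample titles call the deficient group SSKO, and the FPKM columns call it mutant. The allele, the strain, what drove the loss of Ovol2 and whether the libraries of a group came from separate mice are not stated in the labels, and the p-values therefore measure only the spread between these libraries, which may be technical.

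During mitosis, TPX2 and its partners nucleate and bundle microtubules near the chromosomes, where the small GTPase Ran frees such factors from importins. After anaphase, PRC1 cross-links antiparallel microtubules into the central spindle, and the centralspindlin complex, which holds RACGAP1, recruits the exchange factor ECT2 so that an anillin-rich contractile ring forms at the cell equator. Many of these genes are transcribed in G2 and M phase, through promoters with a cell cycle genes homology region (CHR), the element bound by the MuvB complexes with B-Myb and FoxM1 or with repressor partners, and often with CCAAT boxes, bound by NF-Y. In the epidermis, dividing cells lie mainly in the basal layer.

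Promoter sequence was available for 9 of the 10 genes in RefSeq (GRCm38.p6, the build also called mm10), as windows of 300 bases with 250 before the annotated start and 50 after it. Stretches of 180 bases that end at the base before the start are shown for 4 genes. Prc1, Ect2 and Ckap2l are shown because a TTTGAA lies upstream of or across the start, and Hmmr because it holds the most CCAAT boxes of the 9. Capitals mark TTTGAA and CCAAT on either strand, so that TTCAAA and ATTGG are matches on the other strand, and the last 5 letters of the Prc1 stretch open a TTTGAA that ends on the first transcribed base.
Prc1 (chr7:80294271-80294450, plus strand): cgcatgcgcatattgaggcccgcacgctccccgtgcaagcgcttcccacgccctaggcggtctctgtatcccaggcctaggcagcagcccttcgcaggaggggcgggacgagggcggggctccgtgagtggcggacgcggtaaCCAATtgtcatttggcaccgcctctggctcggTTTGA
Ect2 (chr3:27153879-27154058, minus strand): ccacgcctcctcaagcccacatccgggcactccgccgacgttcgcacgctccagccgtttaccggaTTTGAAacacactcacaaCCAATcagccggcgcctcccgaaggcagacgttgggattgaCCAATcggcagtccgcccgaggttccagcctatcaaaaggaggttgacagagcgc
Ckap2l (chr2:129297213-129297392, minus strand): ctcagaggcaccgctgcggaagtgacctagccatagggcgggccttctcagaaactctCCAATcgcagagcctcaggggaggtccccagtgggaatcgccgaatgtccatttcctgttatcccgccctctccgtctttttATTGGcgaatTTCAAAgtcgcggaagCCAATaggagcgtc
Hmmr (chr11:40733438-40733617, minus strand): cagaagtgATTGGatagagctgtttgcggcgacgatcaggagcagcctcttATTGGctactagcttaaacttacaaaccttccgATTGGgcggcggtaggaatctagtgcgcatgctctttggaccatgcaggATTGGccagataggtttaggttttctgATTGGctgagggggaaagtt

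The letters TTTGAA were found, on either strand of the 300 bases, in 6 of 9 genes (66.7%) and in 20.2% of the 27025 genes with such windows, where a gene with several starts counted if any of its windows matched. With TTTAAA added, 7 of 9 genes (77.8%) matched, against 30.6% of all genes. CCAAT was present in 5 of 9 (55.6%), against 41.1% of all genes, and a CCAAT with either CHR form in the same window also in 5 of 9 (55.6%), against 12.2% of all. The TTTGAA of Prc1 began at position -5 from the start and its CCAAT at position -37. In Racgap1 and Hmmr the TTTGAA lay just past the start, beginning at bases 6 and 9, and Anln had it at base 29 and on the other strand at base 22. Birc5 held only a TTTAAA, at position -220. Nusap1 and Tacc3 held none of these letters in this window. No motif overlapped another, and a match describes letters and not a bound site.

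**Figure D1:**
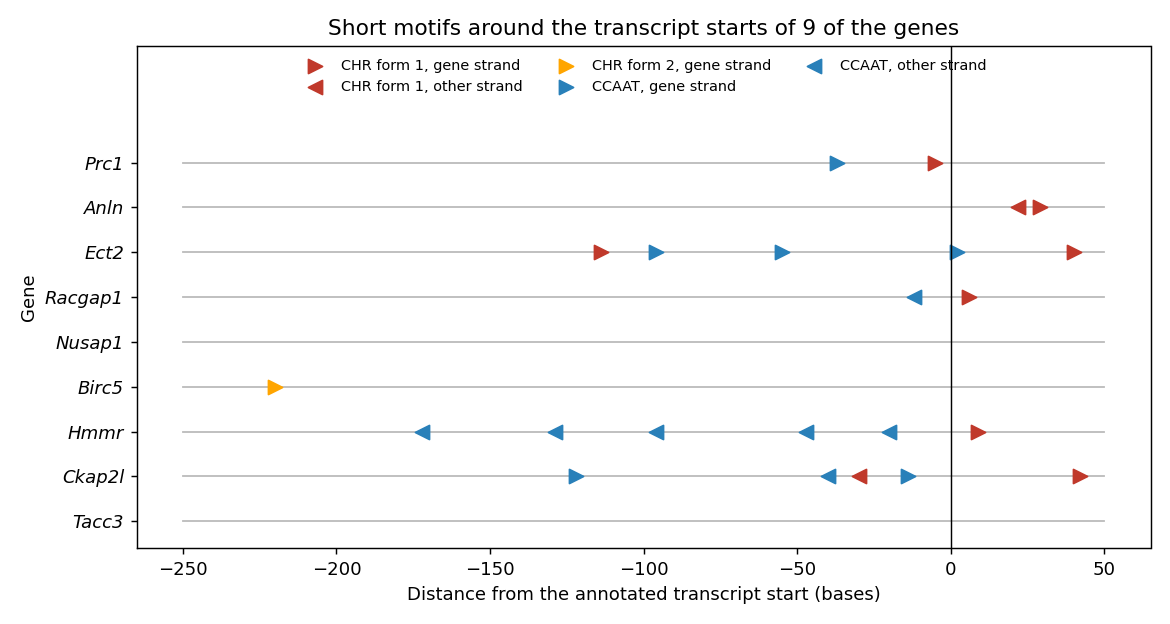
Positions of short motifs around the annotated transcript starts of 9 genes, 1 line per gene, on an axis of distance from the start in bases (upstream is negative). Red arrowheads mark TTTGAA (CHR form 1), orange TTTAAA (CHR form 2) and blue CCAAT, pointing right on the gene's strand and left on the other; Hmmr carries 5 CCAAT boxes upstream, while Nusap1 and Tacc3 carry no mark.

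All 10 genes stood lower in the Ovol2-deficient libraries, with both deficient values below both control values for each. The distance was 25.0% of the control mean for Tpx2 and 38.2% for Ckap2l, the ends of the range. The calls rest on a limma model fitted to log2(FPKM + 1) of all 11350 genes with a mean of at least 1 FPKM, with Benjamini-Hochberg adjustment. Prc1, Anln and Hmmr fell in that test and the other 7 did not pass at an adjusted p under 0.05. The same call was made for 0.511% of all tested genes, and 24.0% of them had both values of the deficient libraries under the 2 control values. In the authors' deposited table, whose test used the same 4 libraries, all 10 genes were called lower at an adjusted p under 0.05, where 2.10% of the genes with an adjusted p were. Their log2 fold changes there ran between -0.67 and -0.39, with adjusted p of 2.07e-06 (Anln) to 0.0167 (Tpx2). The median log2 fold change of the 10 genes was -0.60, beside -0.0014 for all tested genes, and 143 of the 11350 genes (1.26%) lay at or below that median. The calls depended on the settings and the libraries. In limma 0 of the 10 genes passed with no filter on low values, under quantile normalization or without the variance trend, and 1 under upper quartile scaling. Likewise 0 of the 10 genes passed in limma without Ovol2-deficient library 1 or without Ovol2-deficient library 2, 7 passed without control 1, and 2 without control 2. The median stayed between -0.66 and -0.47 in those fits.

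**Figure D2:**
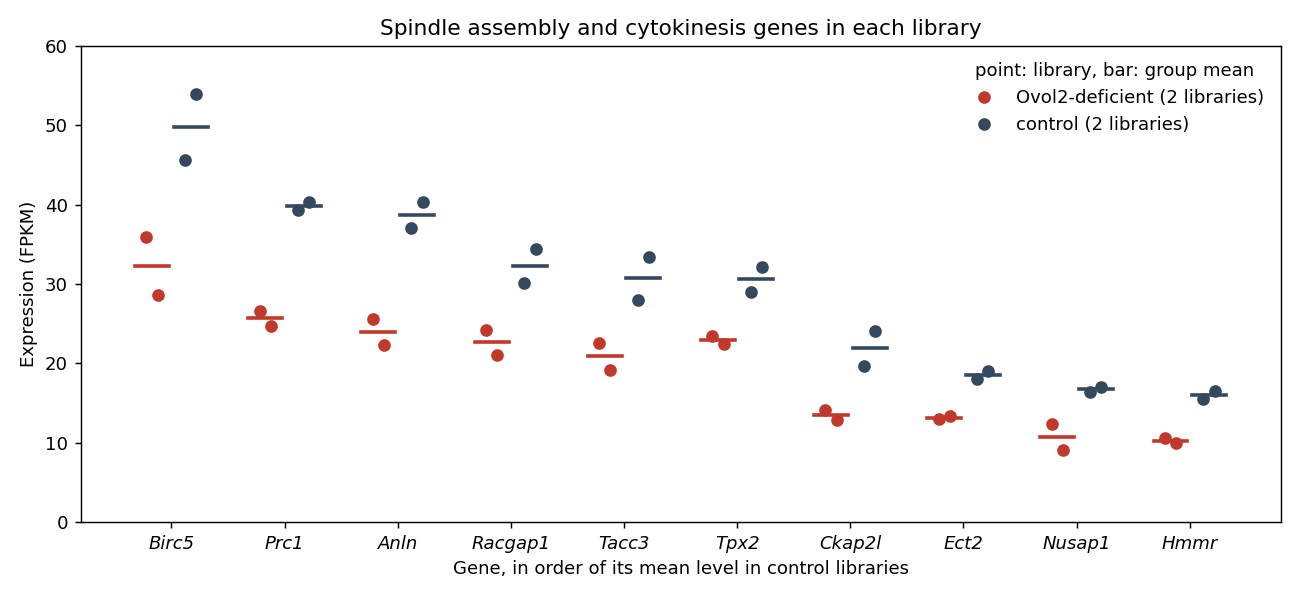
Expression of the 10 genes in FPKM in each library (points) with group means (bars), Ovol2-deficient in red and control in dark blue, ordered by the control mean. In every gene both red points lie below both dark points, with Birc5 highest in either group, at 35.9 and 28.6 FPKM in deficient and 45.6 and 53.9 FPKM in control libraries.

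Among the genes of spindle assembly, Tpx2 encodes the protein that activates the Aurora A kinase on spindle microtubules. Its level was 23.4 and 22.5 FPKM in the deficient libraries and 29.0 and 32.2 FPKM in the controls. The groups did not overlap, but the difference was the smallest of the 10, and the log2 fold change of -0.40 (SE 0.10) had an adjusted p of 0.0967 in limma. The authors' deposited table gave Tpx2 a log2 fold change of -0.39 with an adjusted p of 0.0167.

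Hmmr encodes a microtubule-binding protein of spindle poles that was first known as a hyaluronan receptor. It stood at 10.6 and 9.93 FPKM in the deficient libraries and 15.5 and 16.5 FPKM in the controls, the lowest group means among the 10 genes. Libraries of a group were close together, and the gene fell with a log2 fold change of -0.59 (SE 0.10, adjusted p = 0.0473 in limma). Nusap1, a protein that stabilizes and bundles microtubules near chromosomes, stood at 12.3 and 9.13 FPKM in the deficient libraries and 16.4 and 17.1 FPKM in the controls. As a ratio, the deficient libraries lay further apart for Nusap1 than for any other of the 10, library 2 being at 73.9% of library 1, and the log2 fold change of -0.61 (SE 0.14) had an adjusted p of 0.0855 in limma.

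Ckap2l encodes a spindle protein also known as radmis, and Tacc3 one that with clathrin and the polymerase Ckap5 cross-links the microtubules of kinetochore fibres. Ckap2l stood at 14.2 and 12.9 FPKM in the deficient libraries and 19.7 and 24.1 FPKM in the controls. Here the controls differed more than the deficient libraries, and the log2 fold change of -0.65 (SE 0.12) had an adjusted p of 0.0563 in limma. Tacc3 stood at 22.6 and 19.2 FPKM in the deficient libraries and 28.1 and 33.5 FPKM in the controls, again with no overlap. Its log2 fold change was -0.54 (SE 0.12, adjusted p = 0.0861 in limma).

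Birc5 encodes survivin, the subunit of the chromosomal passenger complex that brings Aurora B to centromeres and later to the central spindle. It had the highest level per length of the 10 genes in either group, 35.9 and 28.6 FPKM in the deficient libraries and 45.6 and 53.9 FPKM in the controls. The groups stayed apart by 9.70 FPKM although the libraries within each differed, and the log2 fold change of -0.61 (SE 0.14) had an adjusted p of 0.0759 in limma.

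Of the central spindle and cytokinesis genes, Prc1 had the lowest adjusted p of the 10. It stood at 26.7 and 24.7 FPKM in the deficient libraries and 39.4 and 40.4 FPKM in the controls. The gap between the groups, 12.7 FPKM, was the widest of the 10, and Prc1 fell with a log2 fold change of -0.62 (SE 0.09, adjusted p = 0.0392 in limma). Racgap1, the GTPase-activating subunit of centralspindlin, stood at 24.2 and 21.1 FPKM in the deficient libraries and 30.1 and 34.4 FPKM in the controls. Both deficient values were lower, with a log2 fold change of -0.49 (SE 0.11, adjusted p = 0.0818 in limma).

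Ect2, the exchange factor that starts ring assembly at the equator, stood at 13.0 and 13.3 FPKM in the deficient libraries and 18.0 and 19.0 FPKM in the controls. Its libraries agreed well within each group, and the log2 fold change of -0.46 (SE 0.09) had an adjusted p of 0.0652 in limma. Anln encodes anillin, the scaffold that links actin, myosin and septins in the contractile ring. It stood at 25.6 and 22.3 FPKM in the deficient libraries and 37.1 and 40.3 FPKM in the controls. Anln fell with the lowest log2 fold change of the 10, -0.67 (SE 0.10, adjusted p = 0.0419 in limma), and it was also the lowest of them in the authors' deposited table, at -0.67 with an adjusted p of 2.07e-06.

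**Figure D3:**
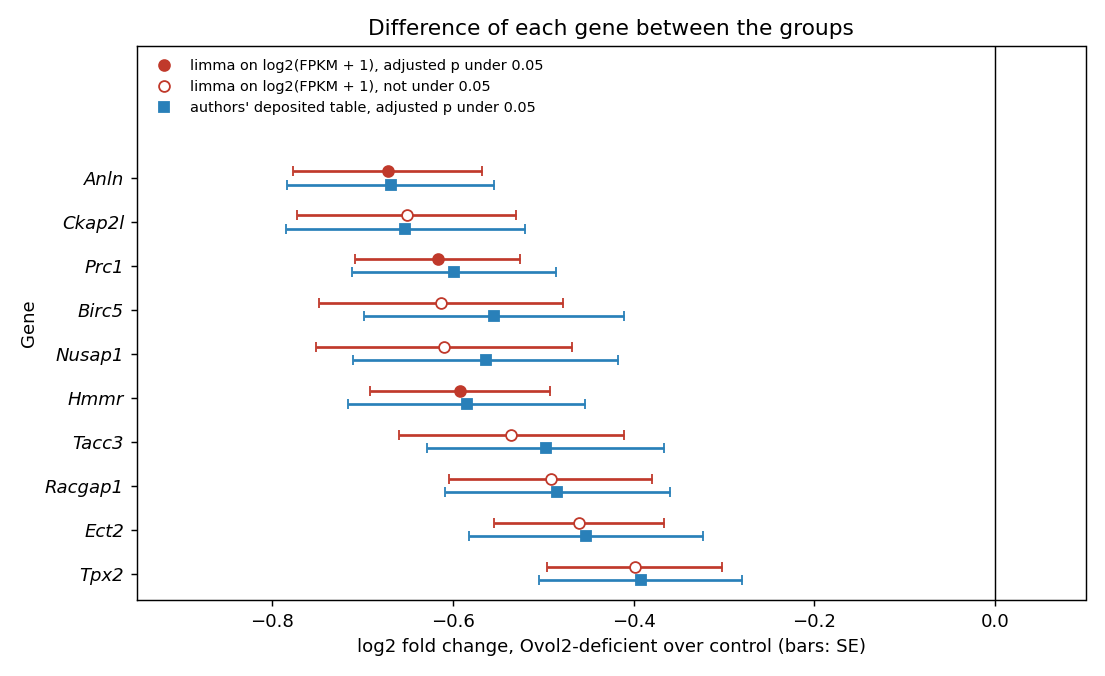
Log2 fold change of Ovol2-deficient over control for the 10 genes, with bars of 1 SE, from limma on log2(FPKM + 1) (red circles, filled where the adjusted p was under 0.05) and from the authors' deposited table (blue squares). The red circles run between -0.67 for Anln and -0.40 for Tpx2, and the SE bars of neighbouring genes overlap.

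The order of levels was much the same in both groups, with Birc5, Prc1 and Anln having the 3 highest group means and Ckap2l, Ect2, Nusap1 and Hmmr the 4 lowest in each. Between them, Tpx2 ranked 4 in the deficient libraries and 6 in the controls, while Racgap1 ranked 5 in the deficient libraries and 4 in the controls, and Tacc3 6 in the deficient libraries and 5 in the controls. Means ± SD (n = 2 each) were 22.9 ± 0.657 FPKM for Tpx2, 22.6 ± 2.18 for Racgap1 and 20.9 ± 2.44 for Tacc3 in the deficient libraries, and 30.6 ± 2.27, 32.3 ± 3.02 and 30.8 ± 3.82 FPKM in the same gene order in the controls. The 3 means of a group differed by less than the SD of Tacc3 in that group, so their order is not resolved. Prc1 and Anln also overlapped in both groups, as did Nusap1 and Hmmr, and in the deficient libraries Anln also overlapped with Racgap1, Tpx2 and Tacc3, and Ckap2l with Ect2. As a share of the summed FPKM of the 10 genes, Tpx2 took 11.2% and 12.2% in the deficient libraries and 10.4% and 10.3% in the controls. Anln took 12.3% and 12.2% in the deficient libraries and 13.3% and 13.0% in the controls. With 2 libraries per group an exact permutation test of a single such value cannot go below p = 0.333 (two-sided), so these shares are given without a test.

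The libraries of a group were ordered alike for nearly all the genes. In the deficient libraries 9 of the 10 genes were lower in library 2 than in library 1, at 73.9% to 96.0% of it, and Ect2 stood at 102%. In the controls all 10 were higher in library 2, at 102% to 122% of library 1. The summed level of the 10 genes was 208 and 184 FPKM in the deficient libraries and 279 and 311 FPKM in the controls, with no overlap.

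Other genes of the pathway were taken from lists chosen by function. Over all tested genes, 7.94% were lower and 9.49% higher at an unadjusted p under 0.05. At an adjusted p under 0.05, limma called 0.511% of all tested genes lower. The authors' deposited table called 2.10% of the genes with an adjusted p lower. Of 5 genes of Aurora kinases and the passenger complex, 0 passed over all genes in limma, with all 5 at an unadjusted p under 0.05 and 4 called lower in the authors' deposited table; the median log2 fold change was -0.68. For Aurkb, the kinase that Birc5 helps to place, the log2 fold change was -0.81 (adjusted p = 0.0581 in limma), and for Cdca8, which encodes borealin, it was -0.74 (adjusted p = 0.0526). Of 7 central spindle and midbody genes, all 7 were lower at an unadjusted p under 0.05 and the authors' deposited table called 6 lower. In limma 3 fell and 4 did not pass, with a median of -0.61. The 3 were Plk1, a mitotic kinase (log2 fold change -0.79), Kif23, the motor of centralspindlin that pairs with Racgap1 (-0.62), and Cep55, a midbody scaffold (-0.61), with adjusted p of 0.0419, 0.0463 and 0.0463 in limma. Kif23 stood at 8.78 and 8.86 FPKM in the deficient libraries and 13.5 and 14.7 FPKM in the controls. For Kif4, a motor that works with PRC1 on the central spindle, the log2 fold change was -0.64 (adjusted p = 0.0572).

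Of 16 other spindle microtubule proteins 2 fell in limma and 14 did not pass, while 11 were lower at an unadjusted p under 0.05. Without overlap 13 were lower and 1 higher, and the authors' deposited table called 6 lower. The median was -0.44. Kif11, the motor that separates spindle poles, fell with a log2 fold change of -0.72, and Dlgap5, which stabilizes kinetochore fibres, with -0.66, both at an adjusted p of 0.0392. Among 28 other mitotic genes 11 fell in limma and 17 did not pass, and the median was -0.65. Of these 28, 27 were lower at an unadjusted p under 0.05 and the authors' deposited table called 22 lower. For 27 the deficient values lay under the controls without overlap. The 3 with the smallest p were the phosphatase gene Cdc25b (log2 fold change -0.81), the cyclin gene Ccna2 (-0.75) and the proliferation marker Mki67 (-0.81), each with an adjusted p of 0.0353 in limma. Of 27 DNA replication genes 3 fell and 24 did not pass, with a median of -0.39, while 20 were lower at an unadjusted p under 0.05. For 24 of the 27 the deficient values lay under the controls without overlap, and the authors' deposited table called 8 lower. Members of the last of these lists that fell were Lig1, a DNA ligase (log2 fold change -0.78, adjusted p = 0.0353), Uhrf1 (-0.76, 0.0419) and Mcm6 (-0.60, 0.0482). Of 18 regulators of G2 and M genes 2 fell, the transcription factor Foxm1 (-0.69, adjusted p = 0.0466 in limma) and the pocket protein Rbl1 (-0.66, 0.0434), while the list median was -0.18. Of these 18, 6 were lower at an unadjusted p under 0.05, 11 were lower without overlap and the authors' deposited table called 5 lower. Of 17 genes of the anaphase promoting complex and its regulators, the ubiquitin ligase that removes several of these proteins at mitotic exit, 2 fell, its conjugating enzyme Ube2c (-0.78, 0.0392) and its inhibitor Fbxo5 (-0.81, 0.0466), and the median was -0.17. Of these 17, 7 were lower at an unadjusted p under 0.05. Without overlap 10 were lower and 1 higher, and the authors' deposited table called 4 lower.

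Lists of abscission, gamma tubulin and augmin, Ran pathway and tubulin genes had medians nearer 0 than that of the 10 genes. So did the regulators of G2 and M genes (-0.18) and the anaphase promoting complex and its regulators (-0.17). Counts without overlap are to be read beside the 24.0% and 24.1% of all genes. Of 16 abscission genes, mostly of the ESCRT membrane-cutting system, 0 were called in limma or in the authors' deposited table, 1 had an unadjusted p under 0.05 (Chmp3, log2 fold change 0.22), and the median was 0.02, with 1 gene lower and 1 higher without overlap. Of 17 genes of gamma tubulin rings and augmin 0 were called in limma or by the authors and 3 had an unadjusted p under 0.05, with a median of -0.17 and 9 of 17 lower without overlap. Of 6 Ran pathway genes 0 were called in limma, 2 had an unadjusted p under 0.05 and the authors called 1 lower, with a median of -0.16 and all 6 lower without overlap. Of 10 tubulins 0 were called in limma, 4 had an unadjusted p under 0.05 and the authors called 2 lower, with a median of -0.15 and 5 of 10 lower without overlap. Whether any list differed from the 10 genes was not tested. Over all 16 lists limma called 26 genes, against 0 without either deficient library, 52 without control 1 and 18 without control 2.

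**Figure D4:**
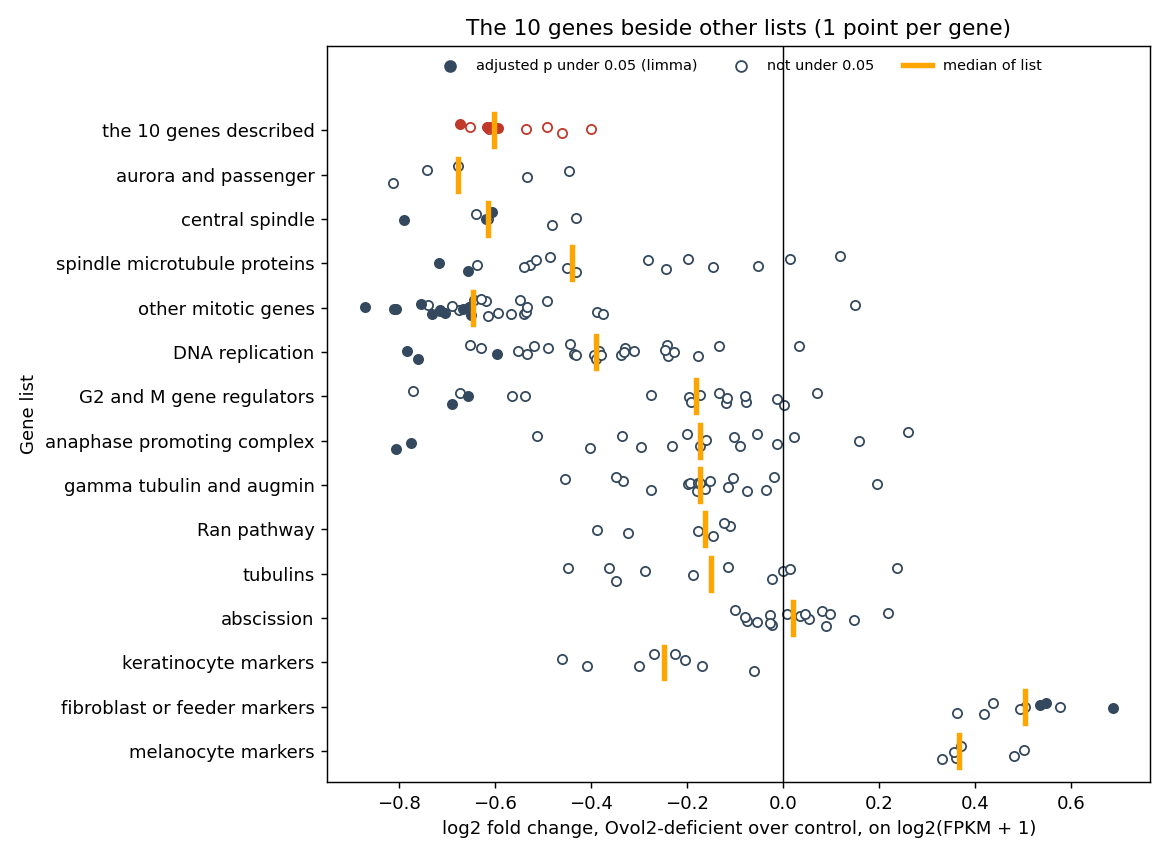
Log2 fold change of Ovol2-deficient over control on log2(FPKM + 1), 1 point per gene, filled where the limma adjusted p was under 0.05, with the median of each list as an orange bar. The 10 genes described are in red with a median of -0.60, near the mitotic lists, while abscission genes sit around 0 with a median of 0.02 and fibroblast markers to the right with a median of 0.50.

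Markers of some other cells stood higher in the same deficient libraries, and in bulk RNA fewer dividing cells and less RNA of these genes per cell cannot be told apart. All 12 markers of fibroblasts or feeder cells were in the table and none was at 0 in all libraries. Of the 9 tested, 3 rose (Loxl1, Pcolce and Fbln2) and all 9 had both deficient values above both controls, where 0.837% of genes were called higher and 24.1% stood apart in that direction; the authors' deposited table, with 2.33% of genes called higher, called 5. The summed level of the 12 was 441 and 463 FPKM in the deficient libraries and 310 and 321 FPKM in the controls. Fbln2 alone gave 187 and 184 FPKM of the deficient sums and 120 and 133 FPKM of the control sums. Of the 12, Dcn, Lum and Postn were near or under 1 FPKM in every library. Of 7 melanocyte markers 6 were tested and 0 called in limma (4 at an unadjusted p under 0.05, 1 called higher by the authors), and their sum was 90.8 and 84.2 FPKM in the deficient libraries and 62.2 and 67.7 FPKM in the controls. Immune markers, with Cd207 listed at 0, summed to 21.8 and 18.7 FPKM in the deficient libraries and 18.7 and 25.4 FPKM in the controls. Endothelial markers, with Cdh5 listed at 0, summed to 4.27 and 3.24 FPKM in the deficient libraries and 3.27 and 3.72 FPKM in the controls.

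The 8 keratinocyte markers were all present and summed to 6854 and 5857 FPKM in the deficient libraries and 7633 and 7110 FPKM in the controls, with Krt5 at 2484 and 2269 FPKM in the deficient libraries and 2960 and 2762 FPKM in the controls. Their summed level in the deficient libraries was 86.2% of that in the controls, and 0 of 8 were called in limma (3 at an unadjusted p under 0.05, 3 called lower by the authors). The sum of the 10 genes was 66.5% of the control level. Per 1000 FPKM of keratinocyte markers the 10 genes held 30.4 and 31.4 FPKM in the deficient libraries and 36.5 and 43.8 FPKM in the controls, so the groups stayed apart on that scale, at 76.9% of the control mean. Single markers stood between 72.5% (Itga6) and 95.5% (Perp) of their control means, with Col17a1 at 75.3%. The 76.9% therefore depends on which markers are summed, and other choices were not tested. Per FPKM of the other mitotic genes the 10 genes held 0.594 and 0.561 in the deficient libraries and 0.541 and 0.576 in the controls, where the groups overlapped. The part of the feeder, melanocyte and keratinocyte markers in the difference was not tested.

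**Figure D5:**
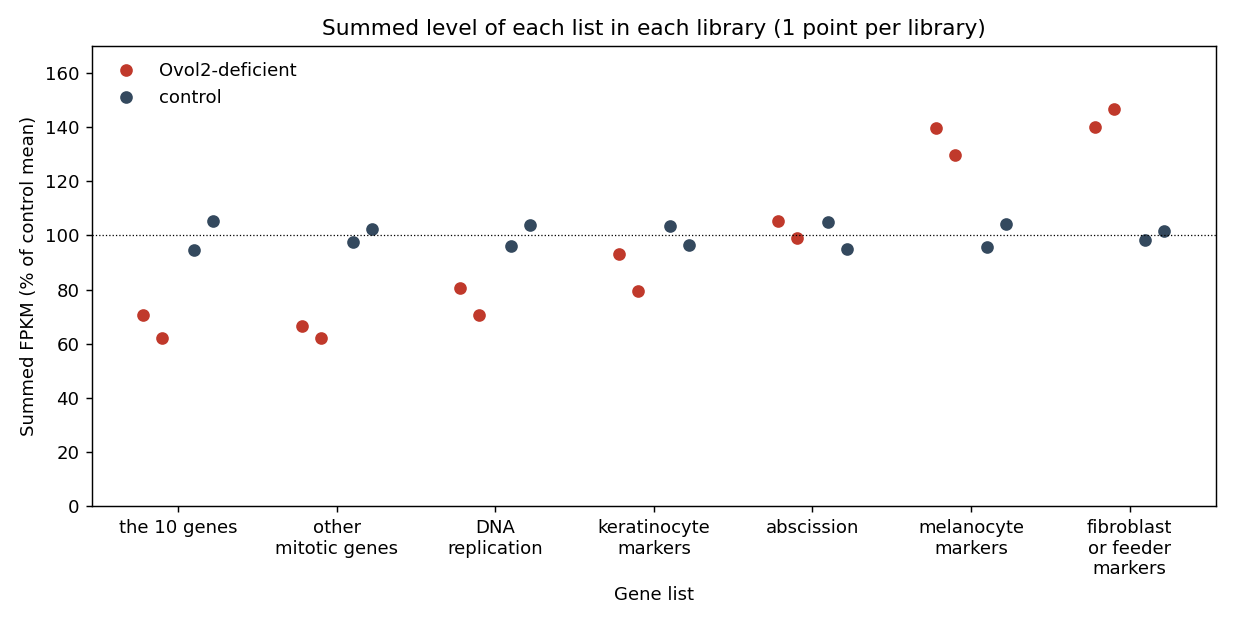
Summed FPKM of each list in each library, as a percentage of the control mean (dotted line at 100), with Ovol2-deficient libraries in red to the left of controls in dark blue. The 10 genes stand at 70.6% and 62.3% in the deficient libraries, keratinocyte markers at 93.0% and 79.5%, and fibroblast or feeder markers at 140% and 147%.

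Ovol2 itself stood at 1.45 and 0.941 FPKM in the deficient libraries and 2.68 and 2.14 FPKM in the controls, a log2 fold change of -0.64 (adjusted p = 0.129 in limma), so the groups did not overlap but the targeted gene did not pass the test. In the authors' deposited table its log2 fold change was -0.36 (adjusted p = 0.441). The altered part of the gene is not stated, and its level is therefore only a partial check of the labels. Across the 11350 tested genes, log2(FPKM + 1) correlated at r = 0.987 between the deficient libraries, 0.985 between the controls and 0.972 to 0.981 between groups, which is a description across genes. No total count of any library was used here. The authors' deposited table gave the 10 genes a mean normalized signal of 591 (Birc5) to 2105 (Anln) per library, beside 48.6 for Ovol2.

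Positions in GENCODE M21 on mm10 place Tpx2, Nusap1 and Ckap2l on chromosome 2 at 152847964 to 152895321, 119618298 to 119651244 and 129268210 to 129297212, and Birc5 and Hmmr on chromosome 11 at 117849251 to 117855743 and 40701395 to 40733422. Prc1 lies on chromosome 7 (80294450 to 80316259), Anln on 9 (22332012 to 22389188), Ect2 on 3 (27097222 to 27153878), Racgap1 on 15 (99620496 to 99651656) and Tacc3 on 5 (33658128 to 33678995). The protocol states no strand, so reads of overlapping genes on the other strand cannot be told apart from theirs. Rccd1 spans all 21810 bases of Prc1 in that annotation and stood at 2.56 and 2.60 FPKM in the deficient libraries and 1.92 and 2.13 FPKM in the controls. Oip5 shares 172 bases with Nusap1 and stood at 5.49 and 3.11 FPKM in the deficient libraries and 6.61 and 6.55 FPKM in the controls. Tmem129 shares 289 bases with Tacc3, and its groups overlapped at 12.3 and 10.5 FPKM in the deficient libraries and 11.7 and 12.0 FPKM in the controls. Noncoding genes on the other strand overlap Prc1, Ect2 and Ckap2l by 1889, 114 and 317 bases.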

How the data were processed

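RNA was extracted with Trizol and full-length cDNA was amplified and tagmented with a Nextera kit, per the labels' protocols. TopHat, HTSeq and the build mm10 are named, with no version or role, per the submitters' processing notes. The authors deposited FPKM for 4 libraries (24487 rows). A second deposited table holds, per the file headers, p-values and adjusted p-values, a test score, a log2 fold change with its SE and a mean normalized signal (24062 rows). The tools behind these values are not given in the sources used here.

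A repeated header line and 27 rows with date-like symbols were removed, and rows sharing a symbol were summed (23970 symbols). The columns named mutant hold the Ovol2-deficient libraries and keep their column numbers. At most 13 of 11350 values were identical between any pair of libraries. Genes with a mean of at least 1 FPKM (11350) entered the fit of log2(FPKM + 1) on the group alone, by limma 3.58.1 (R 4.3.3) with a variance trend and Benjamini-Hochberg adjustment (threshold 0.05). The fit was checked on data simulated from its own variance model, which cannot show how well the calls hold for real libraries. Fold changes on this scale understate changes of low genes. The depth is unknown, so no counting interval is given.

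The members, the 16 other lists (203 genes, all found) and the rule for named genes were chosen with earlier results of these data known. That rule names the members, Ovol2, called genes of each list (up to 3 per direction), up to 2 uncalled genes of each list with the largest changes, and tested keratinocyte, fibroblast and melanocyte markers; not every gene it allows is named. Outside it, Dcn, Lum, Postn, Cd207 and Cdh5 were named as markers too low to be tested, and genes that overlap a member by position. A further list is not reported here. Alternatives were other filters, a pseudocount of 0.1, quantile and upper quartile scaling, no variance trend, the replicate number as a block, and each library left out.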

Additional observations from a re-analysis of the deposited data

How the results depend on the processing

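In limma, all 10 genes kept a negative log2 fold change under each of the 11 alternatives, while the count of calls moved. Of 110 combinations of gene and alternative, 84 kept their side of the threshold, 18 lost a call and 8 gained 1; Tpx2 and Nusap1 were never called. The members called (3), the genes called of all tested (153) and the genes called in the other lists (26) became 0, 3 and 0 with no filter on low values, 5, 267 and 43 with a mean of at least 5 FPKM, 0, 5 and 0 under quantile normalization, 1, 36 and 4 under upper quartile scaling, and 0, 6 and 0 without the variance trend. With a pseudocount of 0.1 they were 3, 171 and 30. With 1 library left out they ranged over 0 to 7, 10 to 466 and 0 to 52, and the median log2 fold change over -0.66 to -0.47; a lone library is assumed there to vary like the others. With the replicate number as a block they were 5, 518 and 54. Same-numbered libraries deviated together across genes (r = 0.220; -0.189 over the 10 genes), but there are only 2 pairs and the labels do not tie the numbers to a shared litter or day. The cause of these changes was not tested. The design's 2 libraries per group and the unknown depth limit the precision.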
